A study of Mus musculus with 24 samples.

Results

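The 10 genes described here encode AP-1 subunits and other products of the immediate early response, and all 10 were found in the files of both data types. They are Fos, Fosb, Jun, Junb, Jund, Atf3, Egr1, Ier2, Dusp1 and Zfp36, 10 of the 55335 genes listed for peripheral blood mononuclear cells (PBMCs) and of the 57847 gene names listed for surface RNA. The members were chosen by name with their values in the PBMC contrasts and in the surface libraries already known, so those values are given as a description and support nothing beyond it.

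Immediate early genes are transcribed within minutes of a stimulus, without need of new protein synthesis, when MAP kinases and other kinases activate transcription factors that already sit at their promoters. FOS and JUN proteins pair through leucine zippers to form AP-1, which binds DNA and drives later genes of growth and inflammation. DUSP1, a phosphatase that switches off MAP kinases, and ZFP36 (tristetraprolin), which sends AU-rich cytokine mRNAs to decay, close the response again.

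The study profiled RNA exposed on the outer membrane of C57BL/6 mouse blood cells with AMOUR, an assay in which fixed intact cells are held on lectin-coated beads, primed with random T7 oligonucleotides and amplified with T7 RNA polymerase. There were 3 surface libraries each of B cells, T cells and natural killer (NK) cells from spleen, and of monocytes and lineage-depleted stem and progenitor cells (HSPCs) from bone marrow. The T cells were taken with a CD8 isolation kit, and red blood cells were lysed. Another 9 libraries held total RNA of PBMCs from blood, with 3 per treatment group (ct, WT and Y). All 24 libraries are wild type by genotype. The letters ct, WT and Y name a treatment that the labels do not explain, so they are kept as group names, and no dose, time or age is given. The study describes the surface libraries as biological replicates, but no source used here says that the replicates, surface or PBMC, came from separate mice, so errors and tests measure the spread between these libraries.

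All members are protein coding, and positions are given on GRCm38 for all but Egr1. Fos is at chr12:85473890-85477273 (plus strand), Fosb at chr7:19302696-19310051 (minus), Jun at chr4:95049034-95052222 (minus), Junb at chr8:84974484-84978718 (minus) and Jund at chr8:70698949-70700616 (plus). Atf3 is at chr1:191170296-191218039 (minus), Ier2 at chr8:84661331-84662852 (minus), Dusp1 at chr17:26505590-26562128 (minus) and Zfp36 at chr7:28376784-28380253 (minus). Promoter windows of RefSeq, 250 bases before to 50 bases after the annotated start on GRCm38.p6, were given for 8 members, all but Egr1 and Ier2. Since the members moved together in PBMCs, as described below, the windows were searched on both strands for motifs of factors that are known to act at such promoters.

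The letters TGACG, the core of the cAMP response element at which CREB and ATF proteins bind, were found in the windows of 5 of the 8 members, against 20.8% of all 32851 windows. The whole palindrome TGACGTCA, which holds TGACG on each strand, was in the Dusp1 window alone and in 1.79% of all windows. A CArG box, the site of serum response factor, was in the Zfp36 window and in 1.63% of all windows. The GC box GGGCGG was in 6 of the 8 windows and 35.7% of all, and the EGR site GCGGGGGCG in the Fosb and Zfp36 windows and 2.91% of all. The AP-1 site TGAGTCA was in 0 of the 8 windows and in 5.20% of all. The Jun and Jund windows held neither TGACG nor a CArG box. Only exact matches were counted, so near matches such as TGACATCA in the Jun window are not among them. The TATA box TATAAA was in 2 of the 8 windows and in 13.6% of all. The RefSeq start of Jund lies 1210 bases before the gene span given above, so its window lies outside that span, and those of Atf3, Dusp1 and Zfp36 lie within their spans. The letters are a description of these windows and say nothing of binding. The 200 bases before the start are printed for the 6 members that held TGACG or a CArG box, 5′ to 3′ on the strand of the gene, with those matches in capitals. They are chr12:85473690-85473889 (plus), chr7:19310046-19310245, chr8:84978749-84978948, chr1:191183334-191183533, chr17:26508473-26508672 and chr7:28379229-28379428 (all minus).
Fos: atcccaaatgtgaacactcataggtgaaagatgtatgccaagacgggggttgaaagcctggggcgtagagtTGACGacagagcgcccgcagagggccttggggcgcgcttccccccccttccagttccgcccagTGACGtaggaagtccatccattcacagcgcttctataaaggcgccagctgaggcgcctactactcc
Fosb: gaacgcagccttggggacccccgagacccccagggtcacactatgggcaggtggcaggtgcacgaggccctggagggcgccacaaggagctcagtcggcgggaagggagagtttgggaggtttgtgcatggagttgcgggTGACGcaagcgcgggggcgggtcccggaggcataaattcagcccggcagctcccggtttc
Junb: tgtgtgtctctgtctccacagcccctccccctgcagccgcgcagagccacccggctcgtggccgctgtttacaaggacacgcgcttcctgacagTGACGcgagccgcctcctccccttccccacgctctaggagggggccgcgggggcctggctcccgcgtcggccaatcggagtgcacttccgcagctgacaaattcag
Atf3: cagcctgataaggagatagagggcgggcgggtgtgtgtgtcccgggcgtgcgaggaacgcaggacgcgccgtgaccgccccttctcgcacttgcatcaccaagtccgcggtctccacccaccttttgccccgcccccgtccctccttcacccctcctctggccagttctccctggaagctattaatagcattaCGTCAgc
Dusp1: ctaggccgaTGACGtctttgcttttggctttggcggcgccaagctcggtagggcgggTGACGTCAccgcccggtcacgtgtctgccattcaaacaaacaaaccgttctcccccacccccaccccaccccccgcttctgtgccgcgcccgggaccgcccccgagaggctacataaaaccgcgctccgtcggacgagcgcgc
Zfp36: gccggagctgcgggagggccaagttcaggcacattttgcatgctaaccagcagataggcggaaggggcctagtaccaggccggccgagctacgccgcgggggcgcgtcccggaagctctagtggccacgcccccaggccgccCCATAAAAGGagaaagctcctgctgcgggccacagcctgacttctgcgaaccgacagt
The Fos stretch has TGACG 129 and 66 bases before the start, Fosb 60, Junb 106 and Atf3 7 bases before it, the last on the opposite strand. Dusp1 has it 191 bases before the start and again in the palindrome, which begins 143 bases before the start. The CArG box of Zfp36 begins 58 bases before the start.

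For PBMCs the deposited RSEM counts are given here as counts per 1000000 (CPM) after TMM normalisation, a scaling that sets the bulk of genes equal between libraries. The 9 libraries held 4686426 to 9055797 counts, of which ribosomal RNA genes took 50.5% to 57.1%, and the library of WT replicate 3 had the lowest TMM factor (0.783, against 0.972 to 1.10 in the others). Levels of different genes are compared only as transcripts per 1000000 (TPM), which corrects for length. By mean TPM Junb was highest in every group, with 23.9 ± 2.37 in ct, 34.9 ± 5.05 in WT and 22.1 ± 1.15 in Y (SD, n = 3 each). Dusp1 and Zfp36 followed at 17.3 ± 1.93 and 17.2 ± 2.04 TPM in ct, and their libraries overlapped there and in WT. Jund, Ier2 and Fos came next (10.3, 8.90 and 7.98 TPM in ct), neighbours overlapping in each group. Jun, Fosb, Egr1 and Atf3 were lowest, at 2.40, 1.75, 1.31 and 0.680 TPM in ct. Junb held 25.7% to 29.9% of the TPM of the 10 genes in a PBMC library, and Fos 8.33% to 8.97%. The summed TPM of the 10 genes was 80.4 to 100.6 in ct, 116.8 to 146.8 in WT and 72.1 to 78.5 in Y, so that the 3 groups did not overlap on this scale. As CPM, the Y and ct libraries lay apart for Jun and Dusp1 only, as described below.

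The first contrast set WT against ct. Every member lay above all ct libraries in all 3 WT libraries, and 9 of the 10 were called higher, with log2 fold changes from 0.40 to 0.88 (edgeR quasi-likelihood test, adjusted p below 0.05 over 11635 genes). Among all genes tested 0.765% were called higher and 7.62% had every WT library above every ct library. Jund had the smallest difference and was not called. Leaving out single libraries left 6 to 9 called, the lowest without WT replicate 3. Since the members were chosen with these values known, nothing is read from their share.

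Among the FOS proteins, which form AP-1 only with a partner, Fos measured 49.6, 51.4 and 50.3 CPM in ct and 70.0, 67.1 and 70.4 in WT. The ct libraries differed by less than 2 CPM from each other, and all WT libraries lay well above them, with a log2 fold change of 0.46 ± 0.09 (SE). Fosb, a relative of Fos with a truncated splice form, measured 22.5, 21.4 and 23.7 CPM in ct and 28.5, 31.4 and 29.6 in WT, a log2 fold change of 0.40 ± 0.09. The call of Fosb was lost with DESeq2, another count test, with the replicate number as a block and without ct replicate 1, ct replicate 2, WT replicate 2 or WT replicate 3.

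Of the JUN proteins, Jun had the larger difference: 27.4, 26.4 and 26.6 CPM in ct stood against 42.8, 45.9 and 47.9 in WT, a ratio of means of 1.70 and a log2 fold change of 0.76 ± 0.09. Junb, which tempers JUN activity in many settings, measured 140.9, 152.7 and 138.5 CPM in ct and 196.8, 208.2 and 222.0 in WT (log2 fold change 0.54 ± 0.09). Jund, a JUN protein that resting cells keep at a steady level, measured 59.0, 63.7 and 51.1 CPM in ct and 66.9, 68.9 and 69.7 in WT, so that its groups did not overlap either, though its log2 fold change of 0.24 ± 0.09 was not called. Atf3, a stress-induced bZIP repressor, had the lowest counts and the largest fold: 5.23, 4.35 and 4.15 CPM in ct and 6.87, 8.61 and 10.2 in WT (log2 fold change 0.88 ± 0.18). Its WT libraries also had the widest relative spread of any member in WT, with a coefficient of variation of 19.3%, and its call was lost with DESeq2 and without WT replicate 3.

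Egr1, a zinc finger transcription factor, measured 16.1, 17.2 and 12.8 CPM in ct and 21.7, 25.8 and 24.9 in WT (log2 fold change 0.66 ± 0.12). Ier2, a nuclear protein of the immediate early response, measured 45.7, 48.2 and 42.6 CPM in ct and 58.1, 58.3 and 68.7 in WT (log2 fold change 0.44 ± 0.10), a call lost without ct replicate 1, ct replicate 3 or WT replicate 3. Both sets of WT libraries lay above ct without overlap. The feedback gene Dusp1 measured 96.2, 111.0 and 91.9 CPM in ct and 141.4, 140.3 and 141.8 in WT, where its coefficient of variation was 0.536%, and its log2 fold change was 0.50 ± 0.09. Zfp36 measured 155.1, 162.7 and 146.0 CPM in ct and 214.6, 199.9 and 209.4 in WT (log2 fold change 0.43 ± 0.09).

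**Figure D1:**
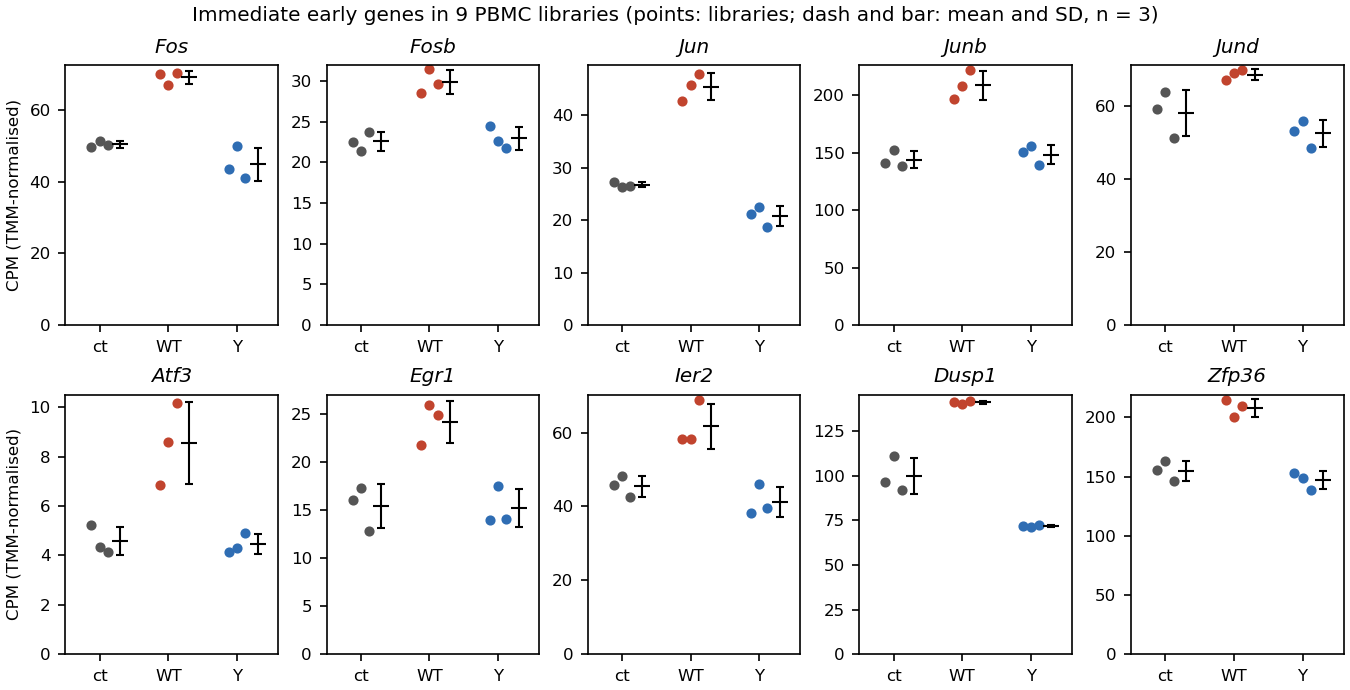
CPM of the 10 members in the 9 PBMC libraries, with 1 panel per gene and an axis from 0 in each; points are libraries, and the dash and bar give the mean and SD of 3 libraries. The WT points lie above the ct points in all 10 panels, and Y lies below ct without overlap for Jun and Dusp1.

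The second contrast set Y against ct. Here 1 of the 10 members, Dusp1, was called lower, beside 0.438% of all genes, and 0 were called higher, nor did any reach an unadjusted p of 0.05 upward with edgeR, or an adjusted one among the 9 to which DESeq2 gave it. Dusp1 measured 71.6, 71.4 and 72.3 CPM in Y, below every ct library, with a log2 fold change of -0.47 ± 0.09. Jun measured 21.2, 22.5 and 18.7 CPM in Y, again below every ct library, but its log2 fold change of -0.37 ± 0.10 was not called. These were the 2 members whose Y libraries all lay below ct, a pattern that 7.55% of all genes showed. For the other 8 members the Y and ct libraries overlapped, with log2 fold changes from -0.17 (Fos) to 0.04 (Junb) and standard errors of 0.09 to 0.21. Egr1, with 13.97, 17.4 and 14.1 CPM in Y, had a log2 fold change of -0.0014 ± 0.13. The call of Dusp1 was lost when ct replicate 2 or any single Y library was left out.

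Set against WT, every member lay lower in all 3 Y libraries, and 8 of the 10 were called lower, beside 0.817% of all genes called lower and 8.75% with every Y library below every WT library. This contrast shares its libraries with the first 2 and is no independent view of the members. Jun had the largest log2 fold change, -1.13 ± 0.09, with a WT mean 2.19 times the Y mean. Dusp1 followed with -0.98 ± 0.09 and a WT mean 1.97 times that of Y. Atf3, at 4.15, 4.29 and 4.90 CPM in Y, had -0.91 ± 0.18, and its call was lost with DESeq2 and without WT replicate 2, WT replicate 3 or any single Y library. Egr1 (-0.66 ± 0.13) came next, its call lost without WT replicate 2, WT replicate 3, Y replicate 1 or Y replicate 3. Fos had -0.62 ± 0.09, with 43.4, 50.1 and 41.0 CPM in Y. Ier2 had -0.57 ± 0.10, with 38.2, 45.9 and 39.5 CPM in Y. Zfp36 had -0.50 ± 0.09, with 153.0, 149.1 and 138.8 CPM in Y. Junb had -0.49 ± 0.09, with 150.3, 155.8 and 139.3 CPM in Y. Fosb (24.4, 22.6 and 21.7 CPM in Y) and Jund (53.0, 55.8 and 48.4) both had a log2 fold change of -0.39 ± 0.09 and were not called. Leaving out Y replicate 3 left 3 members called (Fos, Jun and Dusp1), and 6 to 10 were called when any other single library was left out.

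**Figure D2:**
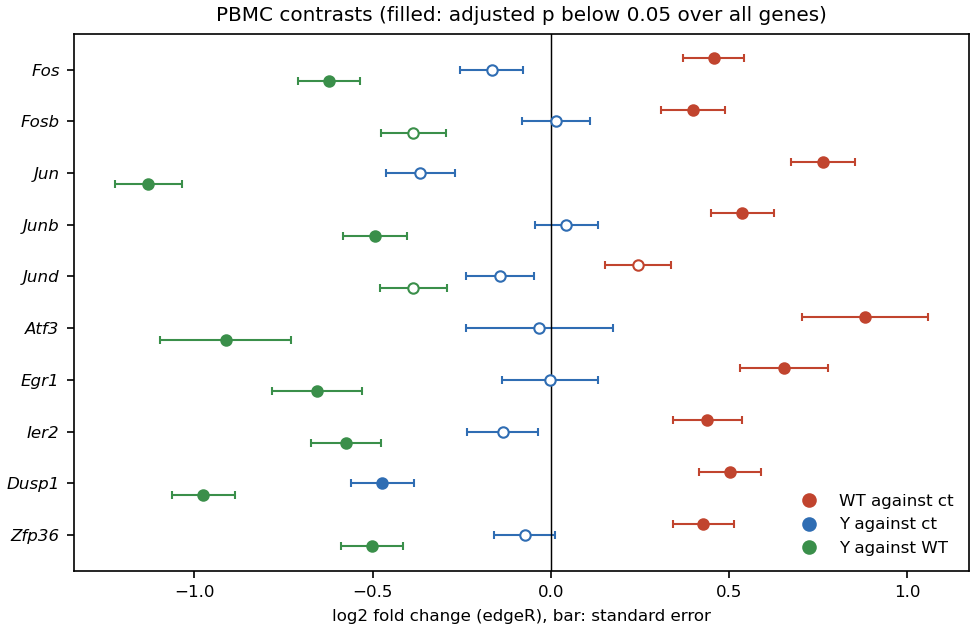
Log2 fold changes of the 10 members in the 3 PBMC contrasts, with standard errors as bars; filled points passed an adjusted p of 0.05 over all genes tested. WT against ct is positive for all 10 genes, Y against WT is negative for all 10, and Y against ct lies near 0 except for Jun and Dusp1.

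The members varied together over the 9 libraries: each had a Pearson r of 0.870 (Fosb) to 0.976 (Jun) with the mean of the other 9, on standardised log2 CPM. This is a description over 9 libraries that share 3 group means. The mean profile was 1.01 to 1.41 SD above its average in WT, -0.68 to -0.21 in ct and -1.05 to -0.54 in Y. Outside the members, Ppp1r15a (GADD34, a stress-induced phosphatase subunit) was most like this profile (r = 0.985), followed by Nr4a3 (0.977), Tob2 (0.973), Ppp1r10 (0.969) and Per1 (0.969). Per1, a clock gene, was called in the WT contrast (log2 fold change 0.71) and against WT in Y (-1.10), whereas Ppp1r10 was called in neither (0.22 and -0.22).

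Other genes of the pathway were taken from lists that were also drawn up with results of these data known. For this and the following lists, 0.765% of all genes were called higher in WT against ct. Lower calls took 0.438% of all genes in Y against ct and 0.817% in Y against WT. Of 40 other immediate early genes 36 passed the expression filter, and 11 were called higher and 0 lower in WT against ct, with a median log2 fold change of 0.38 beside 0.0041 over all genes. Nr4a3, an orphan nuclear receptor, led with 1.17 ± 0.15 (edgeR adjusted p = 3.8e-04), ahead of Gadd45b (0.95 ± 0.11, adjusted p = 2.1e-04), Ier3 (0.70 ± 0.16, adjusted p = 0.029) and the ERK phosphatase gene Dusp5 (0.62 ± 0.10, adjusted p = 0.0017). In Y against WT 17 of the 36 were called lower and 0 higher, the 4 largest being Nr4a3 (-1.28), Nfil3 (-0.90), the salt-inducible kinase gene Sik1 (-0.86) and Dusp2 (-0.86). Against ct, Y had 1 called, Sik1, at -0.47 ± 0.08 (edgeR adjusted p = 0.0089), and a list median of -0.09. DESeq2 called 10, 3 and 14 of this list in WT against ct, Y against ct and Y against WT, of 31, 24 and 30 with an adjusted p.

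Of 14 further AP-1 family bZIP genes, among them other FOS-like, BATF, MAF and ATF genes, 10 passed the filter. In WT against ct 0 were called with edgeR or with DESeq2, which gave 8 an adjusted p, and 3 had an unadjusted edgeR p below 0.05, with log2 fold changes from -0.27 to 0.43, and in Y against WT Maff (-0.93 ± 0.20) and Atf4 (-0.38 ± 0.09) were called lower with edgeR, and 0 of 7 with DESeq2. Of 22 kinases and transcription factors that act upstream, such as MAP kinases, ELK factors, SRF and CREB, 20 passed the filter and 0 were called in any of the 3 contrasts with edgeR or with DESeq2 (18, 15 and 18 with an adjusted p), with medians of 0.03 (WT against ct), 0.04 (Y against ct) and 0.02 (Y against WT). At an unadjusted edgeR p below 0.05 there were 1, 2 and 4 of them. Of 12 cytokine and chemokine mRNAs known to decay through ZFP36, 5 passed. In WT against ct 3 were called higher: Ccl4 (1.52 ± 0.31), Tnf (0.85 ± 0.13) and Il1b (0.54 ± 0.12). Ccl4 was called lower in Y against WT (-1.58 ± 0.33), and 0 of the 5 were called in Y against ct, with 0 at an unadjusted p below 0.05 with edgeR, and DESeq2 gave an adjusted p for 1 of them there, which was not called. DESeq2 called 1 in WT against ct and 0 in Y against WT, of 3 with an adjusted p in each.

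Markers of several blood cells moved with the same contrasts. Summed TPM of 6 monocyte markers was 43.9 to 53.2 in ct, 52.0 to 69.0 in WT and 40.8 to 44.0 in Y. Of the 6, Ly6c2 was called higher in WT against ct (log2 fold change 0.64) and the list ran from -0.10 to 0.64, while DESeq2 called 0 of 5. In Y against WT Ly6c2 (-0.77) and Csf1r (-0.46) were called lower and 2 of the 6 were positive, up to 0.24. NK markers summed to 6.14 to 7.65 TPM in ct, 8.25 to 11.1 in WT and 5.94 to 6.93 in Y, Klra8 being at 0 in ct and Y. Of the 4 that passed the filter, Klrb1c (1.11) and Ncr1 (0.77) were called higher in WT against ct with edgeR and 0 of 3 with DESeq2, all 4 being positive there and negative in Y against WT, where 0 were called with either tool and 3 had an unadjusted edgeR p below 0.05.

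Neutrophil markers summed to 57.0 to 72.4 TPM in ct, 47.2 to 58.7 in WT and 129.5 to 131.7 in Y. In WT against ct Ngp was called higher (1.31) and S100a8 (-0.71) and S100a9 (-0.41) lower. In Y 6 of the 9 were called higher against ct beside 0.266% of all genes, led by Ngp (2.12), S100a8 (1.30), Mmp8 (1.23) and S100a9 (1.22), and 7 against WT beside 0.438%, led by S100a8 (2.01), Mmp8 (1.87), S100a9 (1.63) and Mmp9 (1.17). Erythroid markers, which include the globins, stood at 3844 to 4412 TPM in ct, 2401 to 2757 in WT and 2242 to 2382 in Y. All 6 were called lower in WT against ct beside 1.60% of all genes, among them Hba-a1 (-0.82), Alas2 (-0.78) and Hbb-bt (-0.78), and 5 in Y against ct beside 0.438%, led by Hba-a2 (-0.73), Hba-a1 (-0.71), Hbb-bs and Hbb-bt (both -0.61). Platelet markers were at 118.7 to 128.9 TPM in ct, 75.1 to 94.3 in WT and 80.6 to 89.6 in Y. All 5 were called lower in WT against ct, led by Itga2b (-0.70), Pf4 (-0.66), Gp9 (-0.61) and Ppbp (-0.55), and Pf4 (-0.44) and Ppbp (-0.38) in Y against ct. Of the 5 B cell and 6 T cell markers 0 were called in any contrast with edgeR or DESeq2, with at most 1 of a list at an unadjusted edgeR p below 0.05, and their sums were 23.5 to 33.3 and 25.3 to 33.6 TPM over all libraries. The part of these cell types in the members' differences was not tested, and in bulk RNA a shift in cell number and a change in RNA per cell cannot be told apart.

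On the cell surface the members were measured as TPM, summed per gene over the listed transcripts. Since TPM are shares, the depth of these libraries is unknown. The defining markers were highest in the cell type they name for the B, T, NK and monocyte libraries, whereas HSPC markers summed to 10.2 to 15.9 TPM in HSPCs and 19.7 to 26.7 in monocytes. Per 1000000 protein-coding TPM, a scale explained below, HSPC markers too were highest in HSPCs, at 732 to 788 against 90.1 to 106 in monocytes and 314 to 353 in NK cells. Monocyte libraries also held 1493 to 1537 TPM of neutrophil markers, against at most 54.3 elsewhere (8227 to 8949 against at most 2762 on the protein-coding scale), and their part in the values was not tested. The monocyte libraries differed in another respect: protein-coding transcripts held 16.9% to 18.1% of their TPM, against 0.645% to 2.96% in the other 12, and they were sequenced on another platform (DNB T7 rather than HiSeq), and their table lists 149488 transcripts against 102168 in each of the others, so cell type, platform and transcript set cannot be told apart for monocytes. Each value is therefore given also per 1000000 protein-coding TPM, that is, the protein-coding transcripts of the gene relative to the sum over protein-coding transcripts of its library. Transcripts of other types, which are listed for Fos, Fosb, Junb, Atf3 and Dusp1, are left out on this scale.

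As TPM, the 10 genes together summed to 1821 ± 177 in monocytes, 193 ± 85.2 in NK cells, 129 ± 51.0 in B cells, 56.2 ± 17.1 in HSPCs and 44.4 ± 17.3 in T cells (SD, n = 3 each). All 10 members were called higher in monocytes against the mean of the other 4 cell types (limma on log2(TPM + 1), adjusted p below 0.05 over 13326 genes), with log2 fold changes from 2.48 (Jund) to 6.00 (Atf3). So were 89.2% of all genes, whose median was 2.20, and the members are hence read relative to that shift. Genes could pass the filter on low values through the 3 monocyte libraries alone, so the shares given here depend on it. It kept 13326 genes with those libraries and 7770 without them. Without the filter 19614 of 37874 genes were called higher in monocytes, with a median of 0.32. In T cells 12523 of these were then called lower, and in HSPCs 11757. In T cells all 10 were called lower beside 83.6% of all genes, and in HSPCs 8 beside 81.6%, or all 10 with a block over the T cell and NK cell libraries, whose same-numbered libraries deviated together. In B cells 6 were called lower beside 55.5% of all genes, and 2 (Jund and Zfp36) higher beside 8.31%. Of these 8 Jun, Atf3, Ier2 and Dusp1 were called whichever of the 15 libraries was left out, whereas the call of Jund was lost without B cell replicate 1 and that of Zfp36 without any single B cell library, without monocyte replicate 2 or 3 and without the filter on low values. In NK cells 1, Junb, was called higher beside 5.73%, a call lost without NK replicate 2 or 3.

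**Figure D3:**
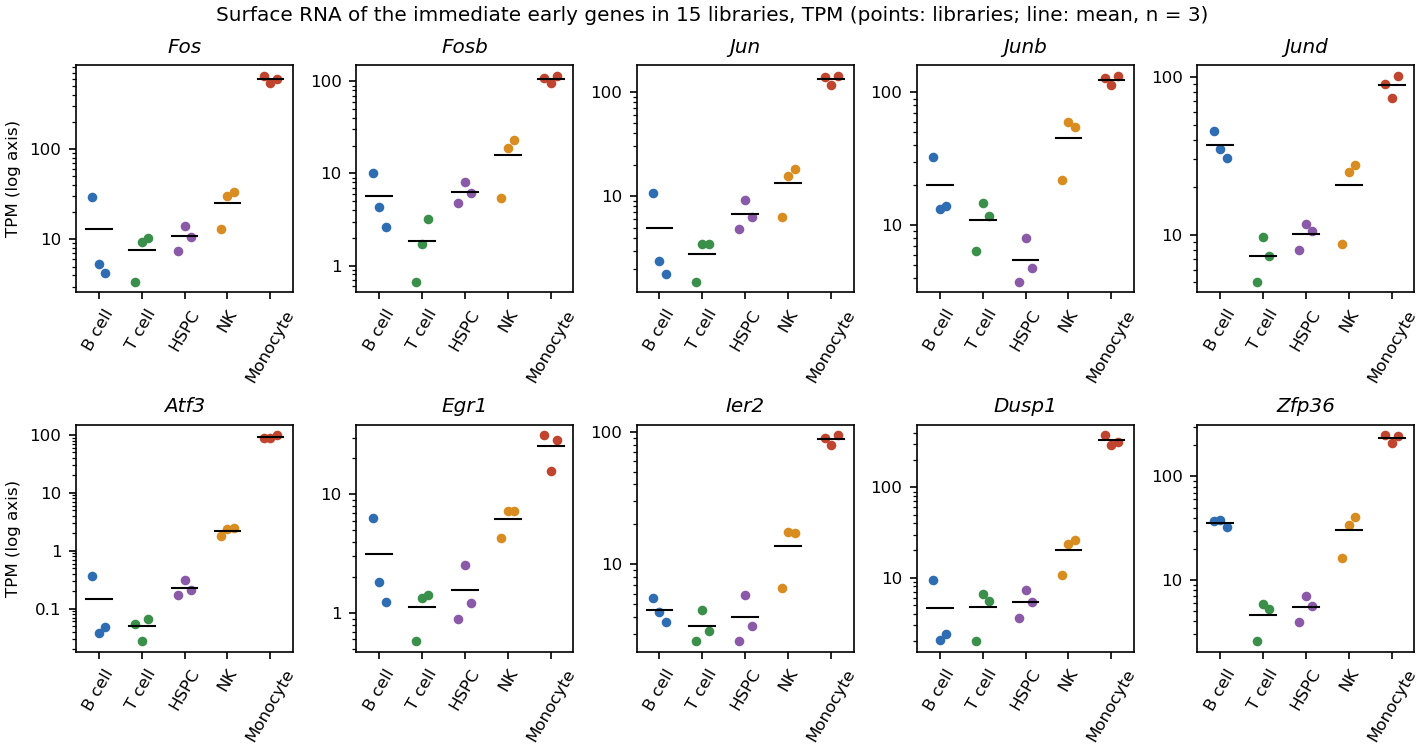
Surface TPM of the 10 members on log axes, with 1 panel per gene; points are libraries and lines the means of 3. All 3 monocyte points lie above every other library in all 10 panels. The share of all genes with this pattern was not counted, and 89.2% of the genes that passed the filter were called higher in monocytes.

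Per 1000000 protein-coding TPM, the sum of the 10 genes was 9989 ± 731 in monocytes, 7699 ± 1432 in NK cells, 5123 ± 1058 in B cells, followed by T cells at 3779 ± 242 and HSPCs at 3344 ± 253. On this scale 7 members were called higher in monocytes beside 36.2% of all genes (13766 tested, median 0.28), and 1, Jund, was called lower beside 16.7%. In NK cells 7 were called higher beside 14.1%, of which Junb, Atf3, Egr1, Ier2 and Zfp36 were called whichever of the 15 libraries was left out, and Fosb and Dusp1 were not. Neutrophil markers in NK libraries summed to 957 to 2076 on this scale, against at most 65.9 in B and T cells and 964 to 2762 in HSPCs. Platelet markers summed to 257 to 304, against at most 18.2 in B and T cells and 1552 to 1688 in HSPCs. Erythroid markers ranged from 402 to 4331 in NK libraries, and the part of these cells in the calls was not tested. Jund and Zfp36 were called higher in B cells beside 16.0%, and 6 members lower beside 29.0%. The T cell contrast had 3 (Fosb, Atf3 and Zfp36) called lower beside 34.3%, and the HSPC contrast 3 (Junb, Ier2 and Zfp36) beside 19.6%. Without B cell replicate 1, T cells had 6 members called lower beside 33.8% of all genes and Junb called higher (0.38) beside 13.1%. HSPCs then had 5 called lower beside 19.2%, and Jun called higher (0.45) beside 23.2%. Without B cell replicate 2 the T cell contrast had 5 members called, counting both directions. Of all 13712 genes tested there, 4487 were called lower and 1741 higher.

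Fos and Dusp1 were the most abundant members in monocytes on either scale. Fos measured 650, 532 and 592 TPM there, 13.2, 30.2 and 33.3 in NK cells, 7.51, 14.1 and 10.6 in HSPCs and 3.38, 9.24 and 10.2 in T cells. B cell replicate 1 stood apart with 29.6 TPM, against 5.40 and 4.28 in the other 2 B cell libraries. Per 1000000 protein-coding TPM, Fos was at 3283 ± 275 in monocytes, clear of every other library. NK cells followed at 1043 ± 165, above all libraries of HSPCs (659 ± 44.1) and T cells (650 ± 169) but overlapping B cells (481 ± 451), whose replicate 1 reached 1001. Fos ranked 12 to 21 among protein-coding genes in the monocyte libraries and took 31.5% to 33.1% of the TPM of the 10 genes there. Its log2 fold change in monocytes on this scale was 2.37 ± 0.33.

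Dusp1 measured 384, 300 and 322 TPM in monocytes, 10.7, 23.4 and 26.0 in NK cells, 3.59, 7.21 and 5.37 in HSPCs, 1.97, 6.58 and 5.49 in T cells and 9.38, 2.04 and 2.34 in B cells. Relative to protein-coding TPM the order was monocytes (1808 ± 204), NK cells (749 ± 79.5), T cells (330 ± 85.3), HSPCs (306 ± 26.8) and B cells (162 ± 129). Monocytes and NK cells were each clear of the next, and the other 3 overlapped.

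Atf3 was low outside the same 2 cell types. It measured 89.7, 89.7 and 100.6 TPM in monocytes and 1.81, 2.37 and 2.49 in NK cells, and at most 0.358 TPM in each of the other 9 libraries. On the protein-coding scale it stood at 530 ± 24.2 in monocytes, 100 ± 19.3 in NK cells, 14.4 ± 1.67 in HSPCs, 5.27 ± 3.37 in T cells and 4.91 ± 6.53 in B cells, and it was called higher in monocytes (5.30 ± 0.47) and in NK cells (2.29 ± 0.47). The NK call depended on the scale, since the log2 fold change was -0.09 and not called on log2(TPM + 1), and 1.23 and called with a pseudocount of 0.1.

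Junb, in contrast, was highest in NK cells once related to protein-coding TPM, at 1408, 2327 and 1791 against 660 to 731 in monocytes. T cells (924 ± 15.2) and B cells (792 ± 305) came between by their means, with B cells overlapping both T cells and monocytes, and HSPCs were lowest at 326 ± 66.1. As TPM, Junb was at 125 ± 10.7 in monocytes and 45.5 ± 20.6 in NK cells. Its log2 fold change in monocytes went from 3.01 ± 0.35 as TPM to -0.19 ± 0.19 on the protein-coding scale, where it was not called. Jund turned round fully: 2.48 ± 0.30 as TPM and called higher, it was -0.78 ± 0.14 and called lower on the protein-coding scale. B cells had most of it there, with 1566, 1498 and 1539, no other library reaching beyond 1007.

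Jun measured 138, 116 and 143 TPM in monocytes, a sum over a pair of listed transcripts. The monocyte table lists Jun-201 and a second transcript, Jun-202, with identical values (69.1, 57.8 and 71.6 TPM each), and the other tables list Jun-201 alone. With both rows counted, the TPM of each monocyte library summed to 1000000. The sum of both rows is therefore taken as the level of the gene, and Jun-201 only is a part of it. With Jun-201 only, monocytes were at 392, 343 and 396 per 1000000 protein-coding TPM, overlapping HSPCs (428, 476 and 389) and below NK cells (421, 624 and 611). The log2 fold change in monocytes on this scale was 1.29 ± 0.30 and called with the sum. It was 0.30 ± 0.30 and not called with Jun-201 only, which leaves out Jun-202 in monocytes alone. The call of Jun in monocytes thus rests on counting both rows.

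Fosb measured 110, 95.6 and 116 TPM in monocytes and 5.43, 19.0 and 22.8 in NK cells. Of these, an intron-retaining transcript, Fosb-204, accounted for 31.1, 28.3 and 31.3 TPM in monocytes and 1.70, 5.54 and 6.89 in NK cells. Per 1000000 protein-coding TPM, which leaves that transcript out, NK cells (442 ± 166) and monocytes (436 ± 33.9) overlapped, and HSPCs followed at 263 ± 17.0, overlapping the lowest NK library but without overlap to B cells (137 ± 87.2) and T cells (116 ± 73.4).

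Egr1 was the least abundant member of the monocyte libraries as TPM, at 31.6, 15.8 and 28.6. Relative to protein-coding TPM it was highest in NK cells (289, 288 and 245), above every other library, while monocytes (143 ± 44.5), B cells (120 ± 87.1), T cells (98.9 ± 16.3) and HSPCs (95.0 ± 31.9) overlapped. For Ier2, NK cells (576 ± 127) and monocytes (499 ± 25.9) overlapped at the top, T cells and HSPCs followed, and B cells were lowest (189 ± 6.33). As TPM, Ier2 was at 87.9 ± 7.63 in monocytes and 13.8 ± 6.15 in NK cells.

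Zfp36 was higher in 3 cell types than in T cells and HSPCs. Per 1000000 protein-coding TPM, B cells had 1296, 1632 and 1618, monocytes 1423, 1234 and 1347, and NK cells 1089, 1378 and 1360, which overlapped. T cells (409 ± 29.0) and HSPCs (351 ± 13.6) lay far lower. As TPM, B cells had 36.0 ± 3.13 and NK cells 30.3 ± 12.5, against 235 ± 23.1 in monocytes.

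**Figure D4:**
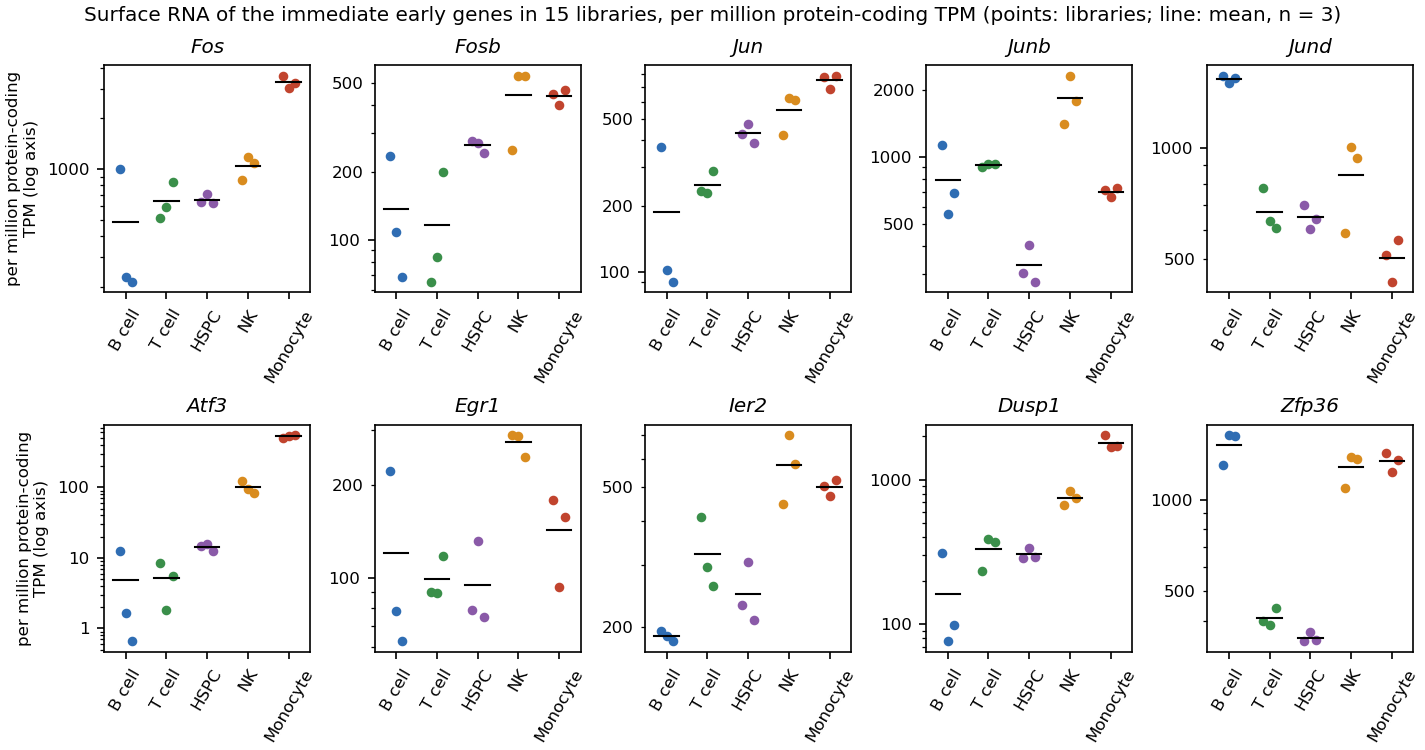
The same libraries per 1000000 protein-coding TPM, on log axes; points are libraries and lines the means of 3, and Jun in monocytes is the sum of Jun-201 and Jun-202. Fos, Dusp1 and Atf3 remain highest in monocytes, Junb and Egr1 are highest in NK cells, and Jund is highest in B cells.

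Protein-coding transcripts held 2.88% of the TPM of B cell replicate 1, against 2.34% and 2.00% in replicates 2 and 3. As TPM, B cell replicate 1 was high for 7 members at once, and the share of all genes likewise high in it was not counted. Beside Fos, it held 10.1 TPM of Fosb against 4.36 and 2.61 in the other 2, 10.7 of Jun against 2.38 and 1.80, 33.0 of Junb against 13.2 and 14.02, 6.36 of Egr1 against 1.82 and 1.25, 9.38 of Dusp1 and 0.358 of Atf3. Zfp36 (37.4, 38.1 and 32.4 TPM) did not follow, and Ier2 (5.63, 4.40 and 3.65) and Jund (45.2, 35.0 and 30.8) differed less. Without this library the B cell log2 fold changes on the protein-coding scale were -2.30 for Fos, -2.24 for Jun and -2.79 for Dusp1, against -1.57, -1.60 and -2.17 with it, and Egr1 was then also called lower (-0.95), which made 7 members called lower beside 26.2% of all genes. Erythroid markers ranged from 0.915 to 15.7 TPM over the 3 B cell libraries, and their part in the spread was not tested.

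Without the monocyte libraries, the NK contrast on the protein-coding scale had 8 members called higher beside 16.1% of all genes, all but Fos (0.95 ± 0.37) and Jund (-0.08 ± 0.16). The largest were Atf3 (3.85 ± 0.53), Dusp1 (1.66 ± 0.33), Junb (1.57 ± 0.21), Egr1 and Fosb (both 1.48). B cells then kept the calls of Jund (1.11 ± 0.16) and Zfp36 (1.41 ± 0.12) as higher, beside 17.0%, and had 5 members called lower beside 25.0%. The T cell contrast then had 4 called lower beside 29.4%, and the HSPC contrast 3 beside 18.4%.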

How the data were processed

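Surface RNA was measured in 15 murine libraries and total RNA of PBMCs in 9. For the surface, the authors deposited TPM per transcript from kallisto; the transcript set is not given in the sources used here. For PBMCs, the authors deposited RSEM expected counts and TPM per gene, with STAR, Trim Galore and mm10 among the submitters' processing notes; the RSEM version is not given. FPKM columns were not used. Expected counts were rounded and tested with edgeR 4.0.16 (quasi-likelihood, TMM, default filter, 11635 genes, one fit of 9 libraries). Surface TPM were summed by gene name and tested with limma 3.58.1 on log2(TPM + 1) with a trend, for genes above 1 TPM in at least 3 of 15 libraries, with 1 contrast per cell type against the average of the rest. P-values were Benjamini-Hochberg adjusted over all genes tested. Both scripts were tested on simulated data. The study used count tests for surface RNA, which TPM do not allow.

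Gene positions are from GENCODE M21, in which 55154 of 55335 gene identifiers were found without regard to version, and promoters from RefSeq. All members were named. From other lists a gene was named when called and among the 4 largest changes of its list, apart from items not reported here, and the 5 genes most like the members' profile were named. The members and lists were chosen with earlier results of these data known. Alternatives were DESeq2 1.42.0, other normalisations, filters, pseudocounts and scales, a replicate block and leaving out each library. The shared replicate numbers did not pair the PBMC libraries (r of deviations -0.061 to 0.059). Among the surface libraries same-numbered T and NK cell libraries deviated together as TPM (r 0.215 to 0.480), less so per 1000000 protein-coding TPM (0.0584 to 0.111); in no other pair of cell types was r above 0.1 in all 3 numbers (-0.267 to 0.198 as TPM).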

Additional observations from a re-analysis of the deposited data

How the results depend on the processing

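The direction of every called member in the PBMC contrasts held under all alternatives. With the replicate block 8, 1 and 8 members were called in WT against ct, Y against ct and Y against WT, beside 9, 1 and 8 without it, and Fosb lost its call. Of all 11635 genes the block had 75 called higher in WT against ct. It had 41 called lower in Y against ct and 82 in Y against WT. DESeq2 called 7, 1 and 7, losing Fosb and Atf3 in the first contrast and Atf3 in the last. Leaving out single libraries gave 6 to 9, 0 to 1 and 3 to 10 members. Of 11900 to 12081 genes tested in those fits, 56 to 126 were called higher in WT against ct. Lower calls took 17 to 51 in Y against ct and 26 to 112 in Y against WT. Counts over all genes moved more: without an expression filter 238 genes were called higher in WT against ct and 234 lower in Y against WT, beside 89 and 95, and without Y replicate 3 the latter was 26. DESeq2 called 47 of 7211 genes higher in WT against ct, 51 of 4344 lower in Y against ct and 65 of 6638 lower in Y against WT.

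On the surface the replicate block called 10 members in monocytes and T cells, 8 in B cells and HSPCs and 1 in NK cells as TPM, as without it. Of all 13326 genes it called 11902 higher in monocytes, 11159 lower in T cells and 10969 lower in HSPCs. B cells had 1159 called higher and 7537 lower, and NK cells 796 higher. On TPM a block over T and NK cells alone changed no other call than that of Fosb and Jun in HSPCs (10 called). NK cells had 2 members called higher with a pseudocount of 0.1, beside 827 of 13326 genes. Without a filter on low values 0 were called, beside 1449 of 37874 genes called higher. Per 1000000 protein-coding TPM 7 were called higher, beside 1937 of 13766, and without monocytes 8, beside 1607 of 7770. T cells had 3 called lower per 1000000 protein-coding TPM, beside 4721 of 13766 genes, and 6 without monocytes, beside 3675 of 7770. HSPCs had 3 called lower under either, beside 2702 of 13766 and 2330 of 7770. B cells had 3 called without monocytes, with Jund and Zfp36 higher and Atf3 lower. Of all 7770 genes 2437 were called higher and 937 lower there. Leaving out single libraries gave 5 to 8 in B cells, 0 to 2 in NK cells, 7 to 10 in HSPCs, and 10 in T cells and monocytes. Of 9161 to 13321 genes tested there, B cells had 781 to 1141 called higher and 3721 to 8031 lower. NK cells had 508 to 825 called higher and 1928 to 6424 lower. HSPCs had 7031 to 11212 called lower, T cells 7182 to 11257 lower and monocytes 7727 to 11880 higher. Relative to TPM, the protein-coding scale reversed Junb in monocytes (-0.19) and T cells (0.31), Jund in monocytes (-0.78) and Atf3 in NK cells (2.29), the last also with a pseudocount of 0.1 (1.23) and without monocytes (1.4995). Signs also turned on that scale for members called on neither: Fos (0.30) and Jund (0.11) in NK cells and Fosb (0.27) and Jun (0.29) in HSPCs. The cause was not tested.

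On the protein-coding scale itself, alternatives were chosen after seeing the data. With the replicate block NK cells had 5 members called, losing Fosb and Dusp1, beside 1853 of 13766 genes called higher. The block changed no other call, and a block over T and NK cells alone changed none. With only transcripts of all 5 tables NK cells had 8 called, adding Jun, and monocytes 7, losing Jun. Of 13659 genes, 1936 were called higher and 840 lower in NK cells then, and 4888 higher and 2298 lower in monocytes. Without monocytes the counts were 8 for NK cells, 7 for B cells, 3 for HSPCs and 4 for T cells. Leaving out single libraries gave 8 for monocytes, 5 to 9 for NK cells, 7 to 9 for B cells, 2 to 6 for HSPCs and 3 to 7 for T cells. These counts pool both directions, over 13531 to 13712 genes tested. Higher calls took 4186 to 5129 genes in monocytes, 1524 to 2040 in NK cells, 1653 to 2310 in B cells, 2448 to 3305 in HSPCs and 1423 to 1895 in T cells. Lower calls took 1867 to 2504, 565 to 964, 3125 to 4315, 2065 to 2910 and 3752 to 5062 in the same order. Atf3 had the lowest counts of the members in PBMCs, and depth is unknown for surface RNA.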
